A study of Homo sapiens with 3 samples.

Results

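The Wnt pathway genes described here are 37 genes chosen by symbol for their roles, namely 2 Wnt ligands, 8 Frizzled receptors, 2 LRP co-receptors, 2 R-spondin receptors, 2 receptor ubiquitin ligases, 3 scaffolds of the destruction complex, β-catenin itself, 4 TCF/LEF factors, 6 pathway inhibitors and 7 target genes. All 37 were found among the 58735 genes of the deposited table, each as a single row, and 21 of them reached a mean of 1 FPKM (fragments per kilobase of gene length, scaled to the size of the library) over the 3 libraries, as did 12605 genes in all. RNA sequencing compared cells overexpressing ZEB1 K80R, a mutant form of the zinc-finger repressor ZEB1 with arginine in place of a lysine, cells overexpressing wild-type ZEB1, and an empty vector control. All are labelled HCT116, a human colorectal carcinoma line, with the treatment given as control. Each group had 1 library, with 13479517 reads for ZEB1 K80R, 14322537 for wild-type ZEB1 and 14764535 for empty vector, so the spread between cultures is unknown and no test of the conditions was possible.

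In the canonical pathway, Wnt ligands bind a Frizzled receptor together with LRP5 or LRP6, which stops the destruction complex of APC, AXIN and kinases from marking β-catenin for degradation, and β-catenin then binds TCF/LEF factors on its target genes. Several targets, such as AXIN2, NKD1, NOTUM, RNF43 and ZNRF3, are negative feedback regulators of the same pathway. In the intestine this pathway maintains the crypt stem cells, which LGR5 and ASCL2 mark, and most colorectal cancers carry mutations in APC or CTNNB1. HCT116 cells are known for an activating mutation in CTNNB1, which values per gene do not show.

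The library labels were checked first. ZEB1 stood at 10.3 FPKM in the ZEB1 K80R library, 9.83 with wild-type ZEB1 and 5.66 with empty vector, and reads of the introduced and the endogenous gene were not told apart. Markers of colon epithelium were nearly absent. Of 15 such markers, 10 had 0 reads in all libraries, among them CDH1, EPCAM and CDX2, none reached a mean of 1 FPKM, and their summed level was 0.970 FPKM for ZEB1 K80R, 0.760 for wild-type ZEB1 and 1.13 for empty vector. These values go against the label of a colon epithelial line in all 3 libraries. Of 9 mesenchymal markers, 4 reached that mean and PDGFRA, THY1 and FAP had 0 reads in all libraries. VIM stood at 435.6, 545.8 and 282.7 FPKM in the same order, CDH2 at 33.3, 27.5 and 18.5, and PDGFRB at 1.54, 2.19 and 0.573. These were lowest in empty vector, while COL1A1, at 0.680, 0.930 and 1.70 FPKM, was highest there. PDGFRB reached that mean only through the overexpression libraries and COL1A1 only through empty vector, so their directions are partly set by the filter. The 5 leukocyte and 4 endothelial markers each stayed below a mean of 1 FPKM. The low counts and the mitochondrial share of the empty vector library set it apart. It held 350 genes with exactly 1 read, where the ZEB1 K80R library held 2902 and the wild-type ZEB1 library 2705, and mitochondrial genes took 9.75% of the reads for ZEB1 K80R, 7.77% for wild-type ZEB1 and 1.29% for empty vector. The part of these differences in the comparisons with empty vector was not tested.

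Most members of the signalling machinery were present in every library, while most of the tissue-specific feedback and stem cell targets were at or near 0. The 7 members of highest mean level were β-catenin (CTNNB1), the receptors FZD8, FZD6 and FZD2, and the targets CCND1, SOX9 and MYC. The 16 members below a mean of 1 FPKM were all 6 inhibitors, 4 of the 7 targets, FZD3, LGR5, RNF43, AXIN2, TCF7 and TCF7L1. Among these, 5 had 0 reads in all 3 libraries and the other 11 reached at most 0.640 FPKM. None of the 21 members above that mean was at 1 FPKM in a single library alone.

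**Figure D1:**
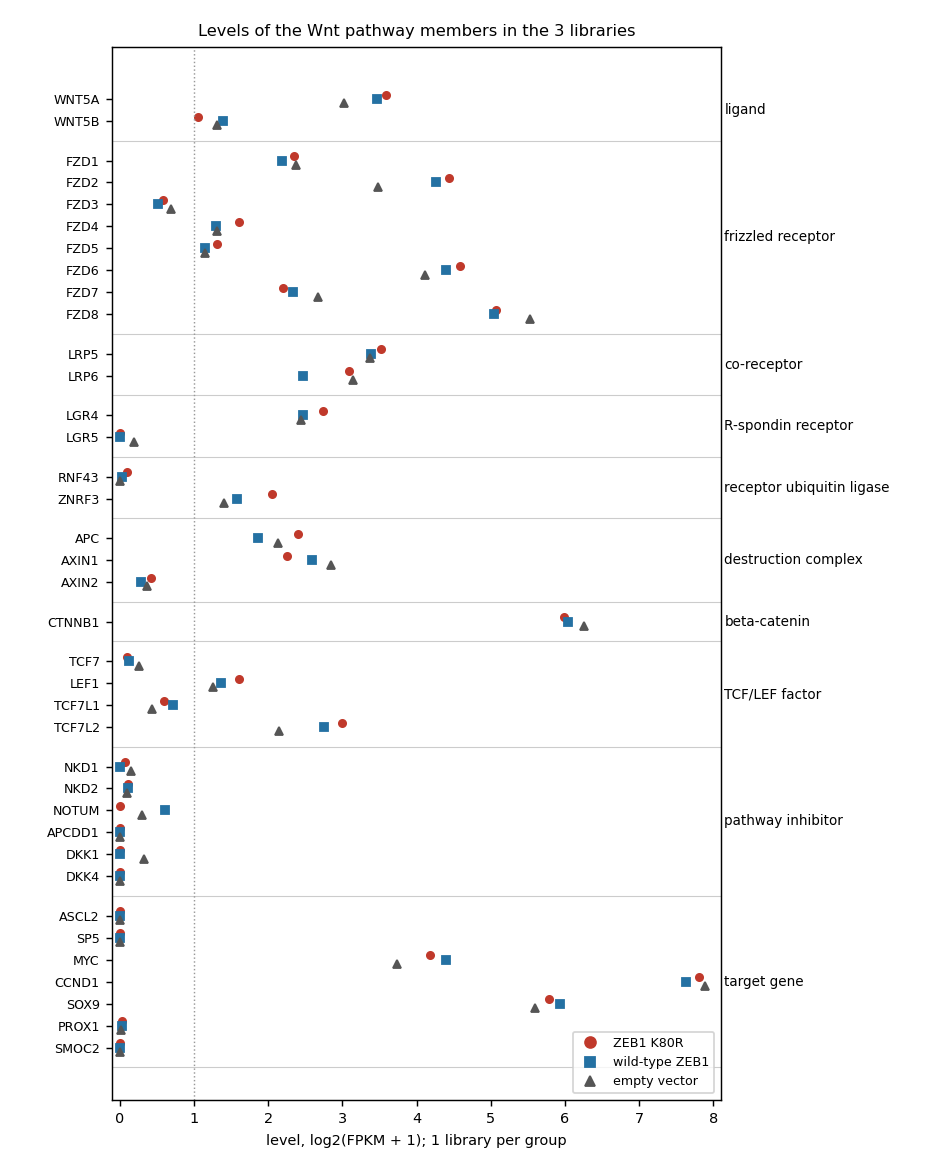
Level of each of the 37 Wnt pathway members as log2(FPKM + 1), grouped by role, with 1 point for each library (red circles ZEB1 K80R, blue squares wild-type ZEB1, grey triangles empty vector) and a dotted line at 1 FPKM. CCND1, CTNNB1, SOX9 and FZD8 lie highest in all 3 libraries, and the pathway inhibitors lie left of the dotted line.

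Differences between libraries were taken on the log2(FPKM + 1) scale, which understates the differences of low genes, and a member was called higher or lower where the ratio of FPKM + 1 reached 1.5 in either direction. Between ZEB1 K80R and empty vector, 3 of the 21 members (14.3%) were higher, against 12.6% of all 12605 genes, and 1 (4.76%) was lower, against 13.0% of all genes. Between wild-type ZEB1 and empty vector, 3 members were higher, against 14.2% of all genes, and 1 was lower, against 11.1%. Between ZEB1 K80R and wild-type ZEB1, 1 member was higher, against 4.42% of all genes, and none was lower, against 5.18%. With so few members, shares of this size lie near the background, and the counts are no result about the pathway. Among protein-coding genes alone the shares of higher and lower genes were 9.68% and 10.3% for ZEB1 K80R against empty vector, 12.0% and 7.63% for wild-type ZEB1 against empty vector, and 1.33% and 3.87% for ZEB1 K80R against wild-type ZEB1.

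The median difference of the 21 members was 0.19 for ZEB1 K80R against empty vector, 0.025 for wild-type ZEB1 against empty vector and 0.16 for ZEB1 K80R against wild-type ZEB1. The medians over all 12605 genes were 0.0045, 0.011 and −0.018 in the same comparisons. The first pair of comparisons shares the empty vector library, and the last shares a library with each of them. The deposited values summed to 303683 FPKM for ZEB1 K80R, 307544 for wild-type ZEB1 and 223875 for empty vector. When the libraries were rescaled to a common sum, the medians over all genes became −0.36, −0.37 and −0.0025, and with mitochondrially encoded genes left out of that sum 0.069, −0.049 and 0.11. At the common sum of all genes no member was higher than in empty vector. Lower than in empty vector were 4 members for ZEB1 K80R, beside 32.9% of all genes lower and 5.49% higher. For wild-type ZEB1 7 members were lower, beside 33.2% of all genes lower and 5.92% higher. The 4 were AXIN1, CTNNB1, FZD7 and FZD8, and the 7 were these with APC, CCND1 and LRP6. With mitochondrially encoded genes left out of the sum, 0 members were lower for ZEB1 K80R, beside 11.0% of all genes. For wild-type ZEB1 only LRP6 was lower there, beside 13.4%, so the other lower calls were lost. The number of members called against empty vector thus depends on the scaling. ZEB1 K80R against wild-type ZEB1 gave counts of 1 and 0 at the common sum as well, beside 4.37% of all genes higher and 4.58% lower. Without mitochondrially encoded genes it gave 2 and 0, beside 6.96% and 2.98%.

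**Figure D2:**
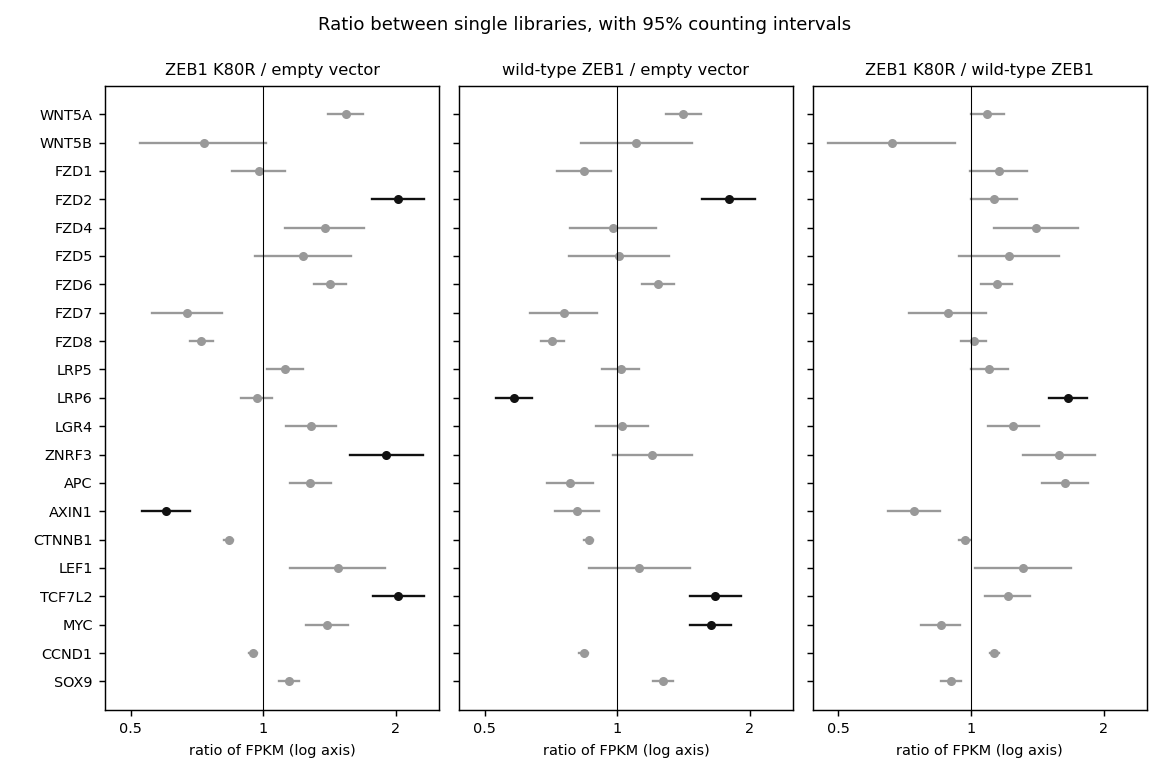
Ratio of FPKM between single libraries for the 21 members with a mean of at least 1 FPKM, on a log axis, with exact 95% counting intervals as bars. Black marks members past a ratio of FPKM + 1 of 1.5 in either direction, which are FZD2, ZNRF3, TCF7L2 and AXIN1 on the left, FZD2, LRP6, TCF7L2 and MYC in the middle and LRP6 on the right.

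Intervals in brackets below are exact 95% conditional counting intervals of a ratio of FPKM. They cover counting error only, and would be too narrow where several reads came from the same molecule. Such an interval excluded 1 for 17 of the 21 members between ZEB1 K80R and empty vector, against 68.5% of all genes. It did so for 14 between wild-type ZEB1 and empty vector, against 68.9%, and for 15 between ZEB1 K80R and wild-type ZEB1, against 53.7%. At this depth most genes of these levels differ between any pair of libraries by more than counting error, so an interval away from 1 does not set a member apart.

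Among the ligands, WNT5A was the more abundant. WNT5A encodes a ligand known mainly for β-catenin-independent signalling (GRCh38, chromosome 3, 55465715 to 55490539, minus strand), and stood at 11.0 FPKM in the ZEB1 K80R library, 10.1 with wild-type ZEB1 and 7.15 with empty vector. As deposited, both overexpression libraries lay above empty vector, at ratios of 1.54 (1.40 to 1.68) for ZEB1 K80R and 1.41 (1.29 to 1.55) for wild-type ZEB1. On the FPKM + 1 scale the ratios were 1.47 and 1.36, short of the 1.5 threshold. Rescaled to a common sum (TPM), WNT5A stood closer together, at 36.2 in ZEB1 K80R, 32.8 in wild-type ZEB1 and 31.9 in empty vector. The antisense gene WNT5A-AS1 overlaps WNT5A and held 56, 49 and 89 reads in the same order, and without a stated strand setting its reads cannot be told apart from those of WNT5A. WNT5B, its paralog, stood at 1.08, 1.63 and 1.48 FPKM from 62, 97 and 101 reads, lowest in ZEB1 K80R.

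The Frizzled receptors, the membrane proteins that bind Wnt ligands, had a summed level of 87.9 FPKM for ZEB1 K80R, 81.2 for wild-type ZEB1 and 84.5 for empty vector as deposited, and their proportions differed. FZD8 (chromosome 10, 35638249 to 35642278, minus strand), the most abundant receptor, stood at 32.6 FPKM in ZEB1 K80R, 32.1 in wild-type ZEB1 and 45.1 in empty vector. FZD2 (chromosome 17, 44557459 to 44559570, plus strand) stood at 20.6, 18.3 and 10.2 FPKM in that order. FZD2 was thus the receptor that passed the threshold as deposited. It was higher than in empty vector by 2.02 (1.76 to 2.31) for ZEB1 K80R and by 1.79 (1.56 to 2.06) for wild-type ZEB1. Its ratio between the overexpression libraries was 1.13 (1.00 to 1.27). At a common sum the FZD2 difference from empty vector was 0.54 for ZEB1 K80R and 0.36 for wild-type ZEB1 on the log2 scale, of the same sign and below the threshold. There FZD8 was lower than in empty vector, past the threshold, in both overexpression libraries. Without mitochondrially encoded genes in the sum both FZD8 calls were lost.

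As a share of the summed Frizzled FPKM, which does not depend on the scale of a library, FZD8 took 37.1% in ZEB1 K80R, 39.6% in wild-type ZEB1 and 53.4% in empty vector. FZD2 took 23.4%, 22.5% and 12.1% in the same order, and FZD6 26.2%, 24.8% and 19.2%. These 3 receptors together held 86.7%, 86.8% and 84.7% of the Frizzled level. The change in proportion thus lay among the 3 abundant receptors, with a smaller share of FZD8 and larger shares of FZD2 and FZD6 for ZEB1 K80R and wild-type ZEB1 than for empty vector.

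**Figure D3:**
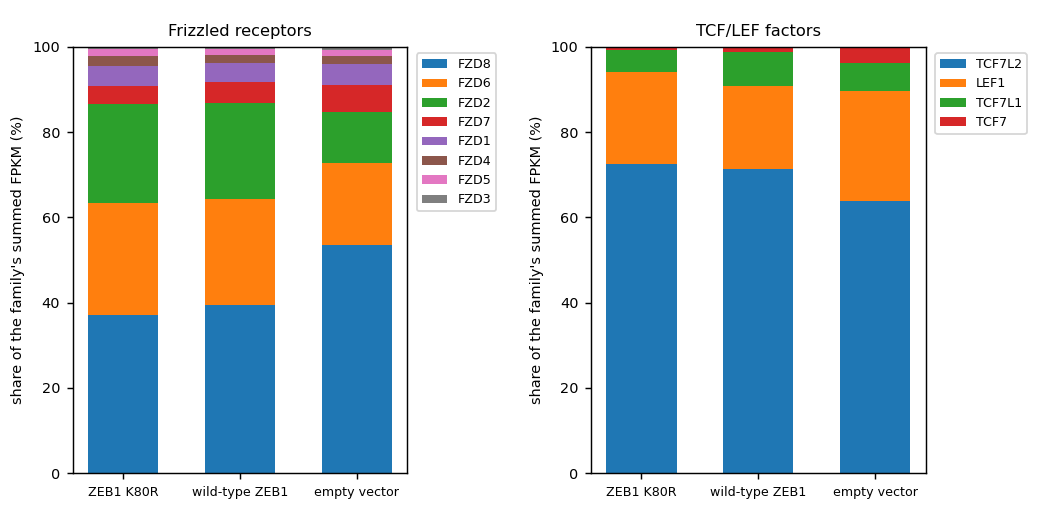
Share of the summed FPKM of the 8 Frizzled receptors (left) and the 4 TCF/LEF factors (right) taken by each gene, in percent, in the ZEB1 K80R, wild-type ZEB1 and empty vector libraries, 1 library each. FZD8 takes 53.4% in the empty vector library and under 40% in both others, and TCF7L2 takes most of the TCF/LEF level in every library.

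The less abundant receptors lay within the threshold as deposited. FZD7 stood at 3.60 FPKM in ZEB1 K80R, 4.06 in wild-type ZEB1 and 5.37 in empty vector, and like FZD8 was lowest in the overexpression libraries. At a common sum FZD7 was lower than in empty vector, past the threshold, in both overexpression libraries, with a TPM of 11.9, 13.2 and 24.0 in the same order. Both FZD7 calls were lost without mitochondrially encoded genes in the sum. FZD1 stood at 4.10, 3.54 and 4.20 FPKM, FZD4 at 2.05, 1.46 and 1.49, and FZD5 at 1.49, 1.22 and 1.21 in that order. FZD4 overlaps PRSS23 on the other strand, a gene with 7606, 6334 and 5594 reads, so part of its 202, 149 and 175 reads may belong there. FZD3 stayed below 1 FPKM, with 91, 82 and 136 reads, and FZD6 reached 23.0, 20.1 and 16.3 FPKM.

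LRP6 was the one member called between the overexpression libraries. LRP6 (chromosome 12, 12116025 to 12267012, minus strand), the co-receptor that is phosphorylated when a Wnt ligand binds, stood at 7.55 FPKM in ZEB1 K80R, 4.56 in wild-type ZEB1 and 7.82 in empty vector, from 1040, 650 and 1285 reads. As deposited, the wild-type ZEB1 library stood alone at the low end. Its ratio to empty vector was 0.582 (0.529 to 0.641), the ratio of ZEB1 K80R to wild-type ZEB1 was 1.66 (1.5 to 1.83), and that of ZEB1 K80R to empty vector 0.965 (0.889 to 1.05). LRP6 remained lower in wild-type ZEB1 than in empty vector at a common sum, by a log2 difference of −1.07. Its TPM was 24.9 in ZEB1 K80R, 14.8 in wild-type ZEB1 and 35.0 in empty vector. ZEB1 K80R thus lay between the other libraries there, within the threshold of empty vector. LRP5, the paralog of LRP6 and the other co-receptor, did not share the deposited pattern, with 10.4, 9.49 and 9.31 FPKM.

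Of the R-spondin receptors, which bind R-spondins and thereby protect Frizzled receptors from removal, LGR4 was expressed and LGR5 was not detectably so in the overexpression libraries. LGR4 stood at 5.70 FPKM in ZEB1 K80R, 4.56 in wild-type ZEB1 and 4.45 in empty vector. LGR5 had 0 reads in ZEB1 K80R, 0 in wild-type ZEB1 and 12 in empty vector, which was 0.144 FPKM, where 3 reads, the limit that a count of 0 allows, would be 0.0429 and 0.0414 FPKM in the overexpression libraries. The empty vector library held at least 9 reads for 192 genes that had 0 in both other libraries, and 235 genes had 0 in empty vector and at least 9 in each of the others, limits set after these values had been seen.

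The membrane ubiquitin ligases ZNRF3 and RNF43 remove Frizzled receptors from the cell surface. ZNRF3 (chromosome 22, 28883592 to 29057487, plus strand) stood at 3.15 FPKM in ZEB1 K80R, 1.99 in wild-type ZEB1 and 1.65 in empty vector, from 292, 191 and 183 reads, and was the highest in ZEB1 K80R. It was 1.90 (1.58 to 2.30) times the empty vector level in ZEB1 K80R and 1.2 (0.976 to 1.48) times in wild-type ZEB1. Its ratio of ZEB1 K80R to wild-type ZEB1 was 1.58 (1.31 to 1.91), or 1.39 with 1 FPKM added, short of the threshold. At a common sum the ZNRF3 log2 difference between ZEB1 K80R and empty vector was 0.35, below the threshold. There wild-type ZEB1 lay below empty vector, with a TPM of 6.46 against 7.38. RNF43 had 7 reads in ZEB1 K80R, 2 in wild-type ZEB1 and 0 in empty vector.

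The scaffolds of the destruction complex differed from each other. APC (chromosome 5, 112707498 to 112846239, plus strand), the tumour suppressor of the colon, stood at 4.30 FPKM in ZEB1 K80R, 2.63 in wild-type ZEB1 and 3.37 in empty vector, and AXIN1 (chromosome 16, 287440 to 352673, minus strand), the scaffold that limits the complex, at 3.75, 5.05 and 6.23 FPKM. ZEB1 K80R thus had the lowest AXIN1 of the 3 libraries and the highest APC, although at a common sum APC was highest in empty vector. AXIN1 was lower in ZEB1 K80R than in empty vector by a ratio of 0.602 (0.530 to 0.683), and in wild-type ZEB1 the ratio was 0.811 (0.724 to 0.909). APC did not pass the threshold in any comparison as deposited, though the ratio of ZEB1 K80R to wild-type ZEB1 reached 1.63 (1.45 to 1.84), or 1.46 with 1 FPKM added. At a common sum APC was lower in wild-type ZEB1 than in empty vector, past the threshold, but not without mitochondrially encoded genes in the sum. On the log2 scale the AXIN1 difference between ZEB1 K80R and empty vector was −0.98 at a common sum, past the threshold, and −0.54 at a common sum without mitochondrially encoded genes, where the call was lost.

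As deposited, β-catenin itself differed little, but at a common sum it was lower than in empty vector in both overexpression libraries, past the threshold. That scaling called 32.9% of all genes lower for ZEB1 K80R and 33.2% for wild-type ZEB1. With mitochondrially encoded genes left out of the sum, β-catenin was not called in either. CTNNB1 (chromosome 3, 41194741 to 41260096, plus strand), at a level above 95.9% of the 12605 genes, stood at 62.7 FPKM in ZEB1 K80R, 64.8 in wild-type ZEB1 and 75.3 in empty vector, from 9969 to 14269 reads. Set against empty vector as deposited, CTNNB1 stood at a ratio of 0.833 (0.812 to 0.855) in ZEB1 K80R and 0.861 (0.840 to 0.883) in wild-type ZEB1. The ratio between the overexpression libraries was 0.968 (0.942 to 0.995). Its TPM, the FPKM rescaled to a common sum, was 206.6 in ZEB1 K80R, 210.8 in wild-type ZEB1 and 336.4 in empty vector. These are levels of mRNA, and the amount and place of the β-catenin protein, by which the pathway is mainly controlled, were not measured.

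Of the TCF/LEF factors, the DNA-binding partners of β-catenin, TCF7L2 was the most abundant and the one called. TCF7L2 (chromosome 10, 112950250 to 113167678, plus strand) stood at 6.97 FPKM in ZEB1 K80R, 5.75 in wild-type ZEB1 and 3.44 in empty vector, from 625, 534 and 368 reads, with both overexpression libraries above empty vector. ZEB1 K80R had 2.03 (1.78 to 2.31) times and wild-type ZEB1 1.67 (1.46 to 1.91) times the empty vector level, where for wild-type ZEB1 the ratio of FPKM + 1 of 1.52 lay just past the threshold. ZEB1 K80R stood at 1.21 (1.08 to 1.36) times wild-type ZEB1. At a common sum the log2 difference from empty vector was 0.49 for ZEB1 K80R and 0.23 for wild-type ZEB1, both below the threshold, and without mitochondrially encoded genes in the sum it was 0.91 for ZEB1 K80R and 0.54 for wild-type ZEB1, where the wild-type ZEB1 call was lost.

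LEF1 stood at 2.06 FPKM in ZEB1 K80R, 1.57 in wild-type ZEB1 and 1.40 in empty vector, and TCF7L1, known as the more repressive member of the family, at 0.510, 0.640 and 0.357 FPKM. TCF7, itself a Wnt target in colon, had 9, 13 and 32 reads in that order, but it overlaps SKP1 on the other strand, which had 1452, 1741 and 3143 reads, so the origin of the few TCF7 reads cannot be told apart. Together the 4 factors came to 9.60, 8.05 and 5.39 FPKM, of which TCF7L2 took 72.5%, 71.4% and 63.8%. The higher total of the overexpression libraries lay mostly in TCF7L2, whose isoforms with and without the β-catenin binding domain are not separated in values per gene.

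The feedback inhibitors and stem cell targets were the silent side of the list. SP5, a zinc-finger factor and direct target, ASCL2, a stem cell factor of the crypt, APCDD1, a membrane inhibitor, SMOC2, a crypt stem cell marker, and DKK4, a secreted LRP inhibitor, had 0 reads in all 3 libraries, which allows at most 0.252 FPKM for DKK4, the shortest, and less for the others. AXIN2, the scaffold often used as a readout of the pathway, had 24 reads in ZEB1 K80R, 16 in wild-type ZEB1 and 24 in empty vector, which were 0.345, 0.222 and 0.289 FPKM. At these counts AXIN2 did not differ detectably between any libraries, with a ratio of 1.55 (0.792 to 3.13) between ZEB1 K80R and wild-type ZEB1. NKD1 and NKD2, which bind Dishevelled, had 11, 1 and 30 reads and 3 reads in each library, and PROX1, a homeobox target, had 2, 3 and 2. DKK1, a secreted LRP5/6 inhibitor, had 0 reads in both overexpression libraries and 9 in empty vector.

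NOTUM, a secreted enzyme that removes the lipid from Wnt ligands (chromosome 17, 81952507 to 81961840, minus strand), had 0 reads in ZEB1 K80R, 22 in wild-type ZEB1 and 11 in empty vector. With the 22 reads taken as counted and 0 reads set at the limit of 3, the ZEB1 K80R level was at least 7.08-fold lower than the wild-type ZEB1 level of 0.528 FPKM. The exact counting interval, which allows for error in both counts, reached up to a ratio of 0.189, a smaller difference. NOTUM was the only gene of the table with at least 20 reads in wild-type ZEB1 and 0 in ZEB1 K80R, a limit chosen after its counts were seen, and 1 gene met the reverse. At a level below 1 FPKM it was outside the filtered comparison, and a single library of each kind carries the contrast.

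Promoter sequences are shown for 3 members, SP5 and DKK1 as targets without reads in the overexpression libraries whose windows hold TCF/LEF motifs, and AXIN1 as the called member whose window holds a ZEB1 motif. The windows are the 250 bases before the start of the gene in RefSeq (GRCh38.p14), and capitals mark the motifs. The TCF/LEF motif was searched as CTTTGAT or CTTTGAA and the E-box bound by ZEB1 as CACCTG, each on both strands. No window of a member held both motifs, so overlap between them could not arise. SP5 lies at chr2:170715087-170715336 on the plus strand, DKK1 at chr10:52314031-52314280 on the plus strand and AXIN1 at chr16:352724-352973 on the minus strand.
SP5: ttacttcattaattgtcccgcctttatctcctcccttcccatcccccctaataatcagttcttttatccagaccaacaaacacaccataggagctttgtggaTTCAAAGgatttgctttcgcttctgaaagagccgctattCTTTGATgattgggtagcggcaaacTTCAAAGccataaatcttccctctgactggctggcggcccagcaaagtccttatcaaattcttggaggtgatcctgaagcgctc
DKK1: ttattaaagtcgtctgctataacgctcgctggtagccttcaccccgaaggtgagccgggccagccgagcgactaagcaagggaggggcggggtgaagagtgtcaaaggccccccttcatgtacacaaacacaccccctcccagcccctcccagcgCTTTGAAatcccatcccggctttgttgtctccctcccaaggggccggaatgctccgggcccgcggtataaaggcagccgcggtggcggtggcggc
AXIN1: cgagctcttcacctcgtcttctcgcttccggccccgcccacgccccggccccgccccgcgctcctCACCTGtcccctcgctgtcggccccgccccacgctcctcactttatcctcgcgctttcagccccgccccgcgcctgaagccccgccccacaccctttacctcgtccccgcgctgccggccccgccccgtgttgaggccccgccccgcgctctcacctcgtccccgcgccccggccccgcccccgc

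The SP5 window held 3 TCF/LEF motifs, which began 148, 109 and 84 bases before the start, and the DKK1 window held 1, at 95 bases. The AXIN1 window held 1 E-box motif at 185 bases. RefSeq windows were found for 21 of the 37 members, 28 windows in all. A TCF/LEF motif stood in 7.14% of these windows and in 5.94% of all 35116 windows, and an E-box motif in 17.9% and 17.5%, which are close shares for so few windows. Of the called members, TCF7L2 had 3 windows with neither motif. FZD2, ZNRF3, LRP6 and MYC had no window among those found, so neither motif was searched for in them.

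The broad targets CCND1, SOX9 and MYC, which many other pathways also control, were the abundant targets and carried nearly all of the summed target level. CCND1, cyclin D1 (chromosome 11, 69641087 to 69654474, plus strand), stood at 222.6 FPKM in ZEB1 K80R, 197.0 in wild-type ZEB1 and 234.9 in empty vector, above 99.1% of the 12605 genes. SOX9, a transcription factor of the crypt base, stood at 54.3, 60.3 and 47.5 FPKM. Neither was called as deposited, and their order differed, with empty vector highest for CCND1 and wild-type ZEB1 highest for SOX9. At a common sum empty vector was highest for SOX9 too. There CCND1 was lower in wild-type ZEB1 than in empty vector, past the threshold, with a TPM of 640.7 against 1049.2. That call was lost without mitochondrially encoded genes in the sum. For ZEB1 K80R the CCND1 TPM was 733.1, within the threshold.

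MYC, the growth-promoting transcription factor, stood at 17.2 FPKM in ZEB1 K80R, 20.1 in wild-type ZEB1 and 12.3 in empty vector, from 687, 833 and 588 reads. Wild-type ZEB1 was highest, at 1.63 (1.47 to 1.82) times empty vector, which passed the threshold. For ZEB1 K80R the ratio to empty vector was 1.39 (1.25 to 1.56), and the ratio to wild-type ZEB1 was 0.854 (0.771 to 0.946). The MYC difference between wild-type ZEB1 and empty vector was 0.23 on the log2 scale at a common sum, below the threshold.

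A further 78 genes of the pathway, from ligands to nuclear cofactors, were examined as a list, and 45 reached a mean of 1 FPKM. Between ZEB1 K80R and empty vector 9 of the 45 (20%) were higher, against 12.6% of all genes, and 1 (2.22%) was lower, against 13.0%. Between wild-type ZEB1 and empty vector 7 (15.6%) were higher, against 14.2% of all genes, and none was lower, against 11.1%. Between ZEB1 K80R and wild-type ZEB1 none of the 45 was called in either direction, against 4.42% of all genes higher and 5.18% lower. At a common sum of FPKM these counts were 3 higher and 8 lower for ZEB1 K80R against empty vector, beside 5.49% of all genes higher and 32.9% lower. For wild-type ZEB1 against empty vector they were 1 higher and 12 lower, beside 5.92% and 33.2%. Between the overexpression libraries they were 0 and 0, beside 4.37% and 4.58%, so the calls below hold for the deposited scale. The higher genes at the common sum were BCL9L in both comparisons with empty vector, and VANGL2 and ROR1 for ZEB1 K80R. CTNNBIP1 was among the lower genes for ZEB1 K80R there as well. The medians of the 45 genes as deposited were 0.14, 0.11 and 0.056 in the 3 comparisons. The most abundant were the casein kinase gene CSNK1G2, at 34.6 FPKM in ZEB1 K80R, 38.1 in wild-type ZEB1 and 33.6 in empty vector, the Wnt carrier WLS, at 40.1, 33.3 and 27.5, the Dishevelled gene DVL1, at 27.6, 30.9 and 34.8, the kinase genes CSNK1E, at 23.7, 33.0 and 30.4, and GSK3B, at 18.7, 18.7 and 21.7, and CSNK1A1, at 20.4, 18.3 and 19.2.

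Higher than in empty vector in both overexpression libraries were the β-catenin cofactor BCL9L, the Dishevelled gene DVL3, the ligand gene WNT3 and the planar polarity gene VANGL2. BCL9L stood at 21.3 FPKM in ZEB1 K80R, 21.5 in wild-type ZEB1 and 8.71 in empty vector, a ratio to empty vector of 2.45 (2.30 to 2.61) for ZEB1 K80R and 2.47 (2.32 to 2.63) for wild-type ZEB1. DVL3, which relays the signal from Frizzled, stood at 21.4, 20.6 and 10.3 FPKM. VANGL2 stood at 3.06, 2.66 and 1.07 FPKM and WNT3 at 1.49, 1.35 and 0.552. WNT3 reached the mean of 1 FPKM only through the overexpression libraries, where it was high, so its call is partly set by the filter. In each of the 4 the overexpression libraries lay close to each other and above empty vector.

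Past the threshold between ZEB1 K80R and empty vector alone were 6 genes, whose difference between the overexpression libraries stayed within the threshold. The histone acetyltransferase genes EP300 and CREBBP, which serve as β-catenin coactivators among other tasks, stood at 12.0 and 6.96 FPKM in ZEB1 K80R, 8.49 and 5.26 in wild-type ZEB1, and 5.69 and 3.92 in empty vector. BCL9, the paralog of BCL9L, stood at 3.64, 2.80 and 1.69 FPKM, VANGL1 at 9.15, 5.95 and 4.92, and ROR1, a receptor for WNT5A, at 1.71, 1.06 and 0.487. Like WNT3, ROR1 passed the filter only through the overexpression libraries, so its call is partly set by the filter. CTNNBIP1, which encodes an inhibitor of the binding of β-catenin to TCF factors, was the one lower gene, at 6.79 FPKM in ZEB1 K80R, 10.5 in wild-type ZEB1 and 13.8 in empty vector. Past the threshold between wild-type ZEB1 and empty vector alone were the ligand acyltransferase gene PORCN, at 8.58, 10.5 and 6.40 FPKM, DVL2, at 11.2, 14.3 and 9.11, and the kinase gene GSK3A, at 12.1, 14.8 and 9.44. At a common sum PORCN, DVL2, GSK3A and VANGL2 were within the threshold for wild-type ZEB1, and EP300, CREBBP, BCL9 and VANGL1 for ZEB1 K80R. DVL3 and WNT3 were within it for both.

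**Figure D4:**
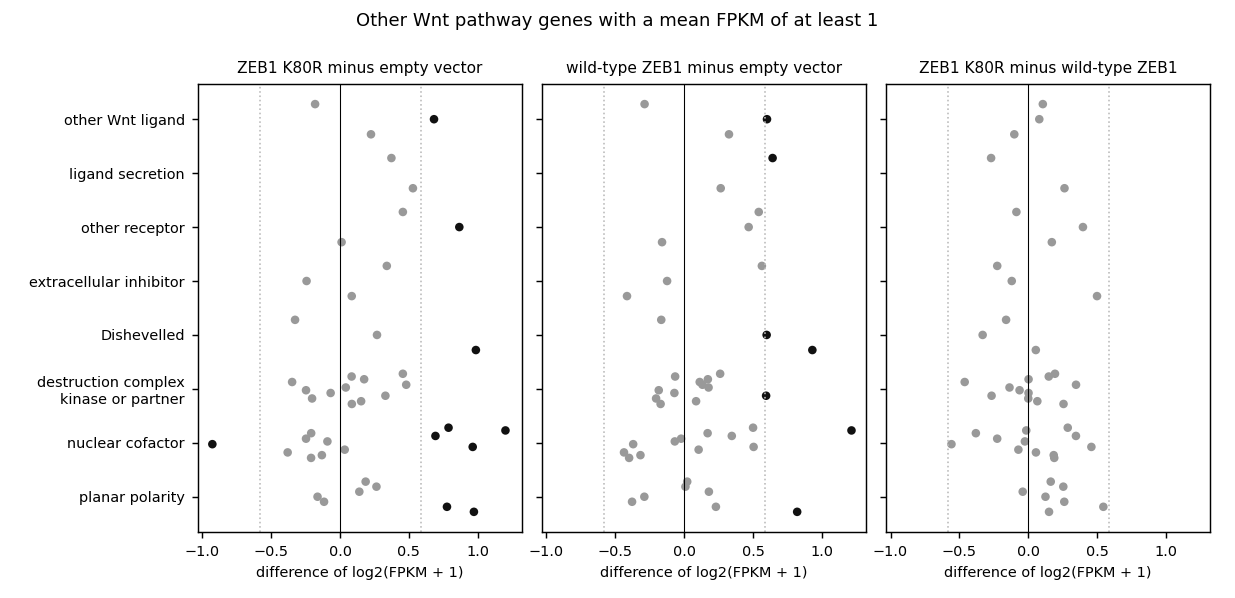
Difference of log2(FPKM + 1) between single libraries for the 45 further Wnt pathway genes with a mean of at least 1 FPKM, by role, with dotted lines at a ratio of 1.5 in either direction and black for genes past them. BCL9L lies farthest right in the left and middle panels, CTNNBIP1 farthest left in the left panel, and no gene passes the lines in the right panel.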

How the data were processed

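Total RNA was taken up with RNAiso Plus and turned into sequencing libraries with a SMARTER kit, per the labels' protocols. The build hg38, DESeq2 (1.20.0), featureCounts (1.5.0-p3) and CASAVA appear in the submitters' processing notes, without their roles. Aligner, annotation and strand setting are not given in the sources used here. What the authors deposited is 1 table of FPKM per gene with gene lengths and coordinates. All 58735 identifiers were found in GENCODE 29 (GRCh38), and the coordinates of all 37 members were equal to it. FPKM times length was a whole multiple of 1 step for 100% of the values above 0 in each library, within 0.05 reads, which gave reads per gene. They summed to 13479517 (ZEB1 K80R), 14322537 (wild-type ZEB1) and 14764535 (empty vector), while the steps corresponded to library sizes of 13321338, 13795840 and 15886593. Recovered reads served only for reads, limits of 3 reads and counting intervals (Clopper-Pearson, SciPy 1.17.1), since with 1 library per group no count test can be made.

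Genes with a mean of at least 1 FPKM were compared on log2(FPKM + 1), called at a ratio of 1.5. The steps were tested on simulated data. The members and lists were chosen with earlier results of these data known. All members, the called further genes and the 6 most abundant of these are named, and alternatives covered the scaling, pseudocount, filter and ratio. Limits on zero counts and the sequences to show were chosen after seeing values.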

Additional observations from a re-analysis of the deposited data

How the results depend on the processing

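With 1 library per group, leaving out a replicate was not possible. No paired analysis was possible because each group has 1 library and no numbers in the labels link them. Results at a common sum of FPKM differed most. Against empty vector, members higher and lower numbered 0 and 4 for ZEB1 K80R, beside 5.49% and 32.9% of all genes, with a median of −0.083. For wild-type ZEB1 they numbered 0 and 7, beside 5.92% and 33.2%, with a median of −0.30. A common sum without mitochondrially encoded genes gave 4 higher and 0 lower members for ZEB1 K80R against empty vector, beside 15.5% and 11.0% of all genes. For wild-type ZEB1 against empty vector it gave 2 higher members, without TCF7L2, beside 12.0%, and a median of −0.035. For ZEB1 K80R against wild-type ZEB1 it gave 2 higher members, beside 6.96%, with a median of 0.29. A pseudocount of 0.1 gave 3 higher members for ZEB1 K80R against wild-type ZEB1, beside 7.63% of all genes. Without a filter, the median of ZEB1 K80R against empty vector was 0.039. There 1 member, NOTUM, was lower in ZEB1 K80R than in wild-type ZEB1, beside 4.09% of all genes. With a mean of at least 5 FPKM, the median of wild-type ZEB1 against empty vector was 0.16. At a ratio of 2, 0 members were called in either direction in any comparison. Of all genes, 4.92% were higher and 4.45% lower for ZEB1 K80R against empty vector at that ratio. The shares were 5.47% and 3.78% for wild-type ZEB1 against empty vector, and 1.64% and 1.14% for ZEB1 K80R against wild-type ZEB1. No called member changed sign under the 3 scalings or the pseudocount of 0.1. For the further pathway genes, scalings were chosen after seeing the data. A common sum gave 3 higher and 8 lower genes for ZEB1 K80R against empty vector, beside 5.49% and 32.9% of all genes. For wild-type ZEB1 against empty vector it gave 1 higher and 12 lower, beside 5.92% and 33.2%. The sum without mitochondrially encoded genes gave 3 higher for wild-type ZEB1 against empty vector, beside 12.0% of all genes. For ZEB1 K80R against wild-type ZEB1 it gave 3 higher, EP300, SFRP1 and VANGL1, beside 6.96%. The cause of these shifts was not tested, other than that a stricter ratio and a filter change which genes can be called. Depth limits members under about 30 reads, such as AXIN2, where only large ratios are detectable.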

Other observations

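Of 17 further Wnt ligand genes, 8 had 0 reads in all 3 libraries, and WNT7B was the most abundant, at 9.65 FPKM in ZEB1 K80R, 10.4 in wild-type ZEB1 and 8.11 in empty vector. The 4 R-spondin genes, whose products are ligands of the LGR receptors, had between 0 and 7 reads in any library. Among extracellular inhibitors, SFRP1, which binds Wnt ligands, stood at 7.24 FPKM in ZEB1 K80R, 4.83 in wild-type ZEB1 and 6.77 in empty vector, a ratio of ZEB1 K80R to wild-type ZEB1 of 1.5 (1.3 to 1.74). DKK3, a divergent member of the Dickkopf family, stood at 13.3, 15.7 and 10.3 FPKM. KREMEN1, a receptor for Dickkopf proteins, had a mean just under 1 FPKM, with 1.29 in ZEB1 K80R, 1.2 in wild-type ZEB1 and 0.505 in empty vector. The genes named here were picked with their values known.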
